A study of Homo sapiens with 6 samples.

Results

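Cytosolic ribosomal proteins are the protein part of the ribosomes that translate the messenger RNAs of the cytoplasm. Their genes were taken by name from the deposited table: every symbol made of RPL or RPS and a number, with an optional A, X or L and a final digit, together with RPLP0, RPLP1, RPLP2 and RPSA, and with no hyphenated name. This gave 82 of the 14136 gene entries. By name alone, 47 of these were assigned to the large subunit, 32 to the small subunit and 3 to the P stalk. The genes were measured in Cal33, a human line grown from an oral squamous cell carcinoma. RNA of 3 libraries came from Cal33 cells with FLAG-tagged CES2 (CES2 1 to 3), and that of 3 libraries from Cal33 cells with the empty vector (Vector 1 to 3). CES2 encodes carboxylesterase 2, a serine hydrolase that cleaves ester bonds. Both groups had received pSin-EF2 lentivirus packaged in 293FT, a line of human embryonic kidney origin, and both were kept in 0.5 ug/ml puromycin. Total RNA was depleted of ribosomal RNA and made into strand-specific libraries. The model is thus a single line with stable overexpression, and no label tells if replicate libraries are from different cultures or transductions. The p-values below therefore rest on the spread among these libraries alone, and that spread may be a technical one.

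A ribosome holds a single copy of most of its proteins, so cells make them in matched amounts. The large subunit forms peptide bonds, the small subunit reads the messenger RNA, and the P stalk recruits the GTPases that drive elongation. Most of these messenger RNAs begin with a C followed by a run of pyrimidines, the terminal oligopyrimidine (TOP) motif, through which the kinase mTOR and the RNA-binding protein LARP1 control their translation. TOP control acts on translation and on messenger RNA stability, and total RNA measures only the amount of RNA. Several ribosomal proteins, among them RPL5 and RPL11, also bind the p53 regulator MDM2 when ribosome assembly is disturbed. A few genes have an expressed paralogue whose name ends in L, such as RPL22L1 for RPL22.

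The TOP motif lies at the transcript start and was not used to choose the genes, so the starts of the genes described below are shown first. Each line holds 10 bases before the start and 20 bases from it, from the RefSeq promoter table of GRCh38.p14, and capitals mark the unbroken run of C and T that begins at the RefSeq start. RPS21, RPL31 and RPS27 had some of the widest spreads between libraries, RPS3A had the lowest fold change, RPL29 and RPL7A had the narrowest spreads, and RPL22 and RPL22L1 are a parent and its paralogue. All 8 have such a run.
RPS21, chr20:62387093-62387122, plus strand: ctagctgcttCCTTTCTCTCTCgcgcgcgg
RPL31, chr2:101002279-101002308, plus strand: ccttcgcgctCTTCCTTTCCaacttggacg
RPS27, chr1:153990752-153990781, plus strand: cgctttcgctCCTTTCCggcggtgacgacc
RPS3A, chr4:151099618-151099647, plus strand: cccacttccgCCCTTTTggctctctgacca
RPL29, chr3:51995876-51995905, minus strand: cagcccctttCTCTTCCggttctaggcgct
RPL7A, chr9:133348208-133348237, plus strand: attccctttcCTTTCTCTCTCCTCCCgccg
RPL22, chr1:6199576-6199605, minus strand: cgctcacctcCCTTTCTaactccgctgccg
RPL22L1, chr3:170870176-170870205, minus strand: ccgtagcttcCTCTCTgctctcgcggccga
The last 4 are genes with no such tract at the RefSeq start, RPS29 and RPS15 with the widest spread between libraries and the paralogues RPS27L and RPL7L1.
RPS29, chr14:49598691-49598720, minus strand: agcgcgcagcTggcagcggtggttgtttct
RPS15, chr19:1438386-1438415, plus strand: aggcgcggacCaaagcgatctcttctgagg
RPS27L, chr15:63157458-63157487, minus strand: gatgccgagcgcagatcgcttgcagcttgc
RPL7L1, chr6:42879606-42879635, plus strand: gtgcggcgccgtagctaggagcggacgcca

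A tract was counted where the start was a C followed by at least 4 pyrimidines on the sense strand, in at least 1 RefSeq start of the gene. Of the 82 ribosomal protein genes, 66 had an entry in the promoter table, and 47 of these (71.2%) had a tract. Among all genes of that table the share was 5.14% (1404 of 27305), and among the tested genes with an entry it was 7.66% (735 of 9599). The median tract of the 47 ribosomal protein genes with a tract was 8 bases, and the longest, 19 bases, was that of RPL39. A tract is a match of letters at an annotated start and not a measured one. The start that Cal33 cells use was not measured here. In the RPS15 window a run of pyrimidines lies further into the transcript and not at its start. Messenger RNAs of translation factors that are known to carry the motif had a tract in 11 of 12 matched genes (91.7%), and ribosome biogenesis genes in 4 of 44 (9.09%).

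The values are TPM, a level per transcript length that is scaled so that all libraries sum to 1000000. Sequencing depth is lost in that scale, and values are given without counting intervals. CES2 itself, the check of the labels, was at 2664, 1929 and 2294 TPM in the CES2 libraries and at 45.6, 41.9 and 44.9 TPM in the Vector libraries. Of the 6 squamous epithelial markers, KRT5 was at 1031 to 2597 TPM over the 6 libraries while KRT14 was at only 1.14 to 2.97 TPM, and the summed level of the list was 2092 to 3297 TPM in CES2 and 2726 to 3507 TPM in Vector. Of 8 markers of fibroblasts, leukocytes and endothelium, 4 stood in the table, with sums of 10.3 to 20 TPM in CES2 and 12.7 to 22.9 TPM in Vector. COL1A2, DCN, PTPRC and CD3E had no row in it.

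Ribosomal protein genes took 15.6, 16.9 and 14.6% of all TPM in CES2 1 to 3, and 17.3, 16.2 and 13.6% in Vector 1 to 3. The highest and the lowest of these 6 shares were both Vector libraries, and the CES2 libraries lay between them. The group means were 15.7 ± 1.15% in CES2 and 15.7 ± 1.88% in Vector (SD, n = 3 each). The summed small subunit level was divided by that of the large subunit and the P stalk together. The ratio was 0.842 ± 0.046 in CES2 and 0.843 ± 0.013 in Vector. The balance of the subunits at the RNA level thus differed by less than its spread between libraries.

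**Figure D1:**
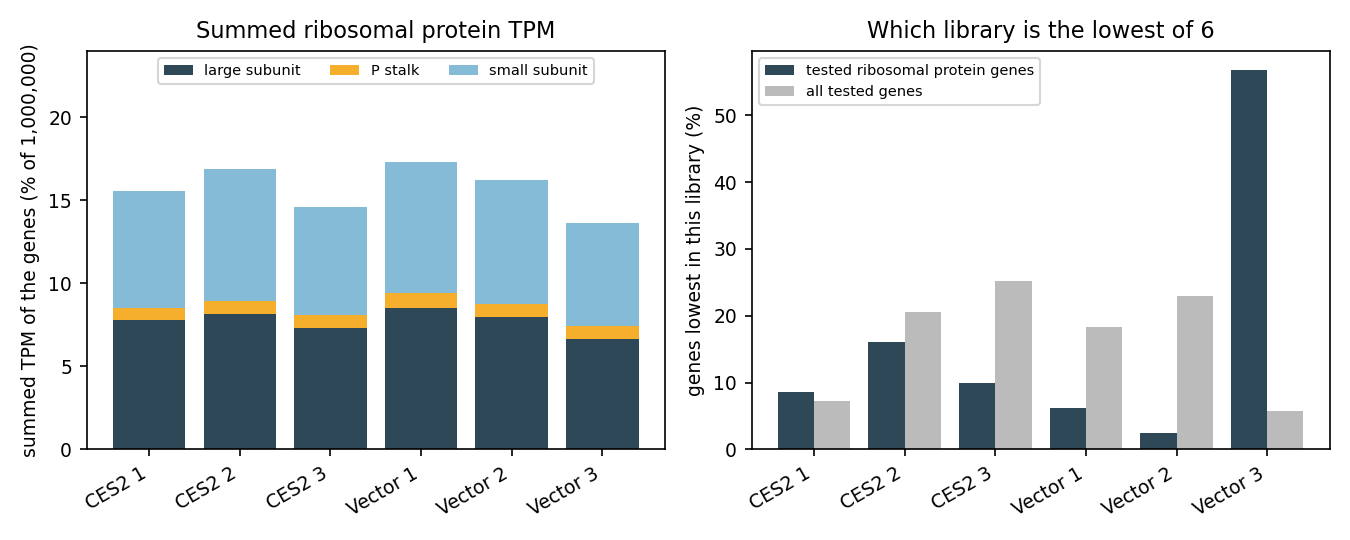
Summed TPM of the 82 ribosomal protein genes as a percentage of all TPM in each library, CES2 left and Vector right, with the parts of the large subunit, the small subunit and the P stalk stacked. The CES2 libraries lie at 14.6 to 16.9% and the Vector libraries at 13.6 to 17.3%. The right panel gives the percentage of genes whose lowest value of the 6 lies in each library, for the tested ribosomal protein genes and for all tested genes, with Vector 3 at 56.8% and 5.73%.

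By level, 57 of the 82 genes had a mean over 1000 TPM, 20 lay between 100 and 1000 TPM and 5 lay under 100 TPM. No gene of the group was at 0 in any library. Of the 100 highest means in the whole table, 53 were ribosomal protein genes. RPS2, a small subunit protein near the entry channel of the messenger RNA, was the most abundant, at 9206, 11429 and 9403 TPM in CES2 and 8806, 10589 and 11348 TPM in Vector. RPL41, the smallest protein of the ribosome, followed at 5492, 6392 and 4671 TPM in CES2 and 6597, 5950.5 and 4486 TPM in Vector. The groups overlapped for both genes, and the order of RPS2 over RPL41 held in all 6 libraries. RPS21, RPL12, RPS18, RPL35, RPL8 and RPL19 came next, with means of 4356, 4186, 4023, 3950.2, 4096 and 3847 TPM in CES2 and 4082, 4126, 4043, 4032, 3752 and 3713 TPM in Vector. Neighbours among these 6 genes differed by less than their spread between libraries.

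The 6 lowest genes were RPL37 and the 5 paralogues whose names end in L or L1. RPL37, a large subunit protein with a zinc finger, was at 155, 198 and 155 TPM in CES2 and 174, 154 and 138 TPM in Vector. Its listed transcript has 7686 bases, far longer than the coding sequence of so small a protein needs, and TPM is a level per length. Across the 82 genes the mean TPM had a Spearman's rho of -0.442 with the listed transcript length, given as a description, since TPM is computed from a length. The rho was -0.316 with the length of the shortest principal transcript of GENCODE release 29 and -0.127 with the ratio of the listed to that length. The 19 genes with a listed transcript over 2000 bases had a median of 632 TPM, with 4 over 1000 TPM. The 63 genes with 2000 bases or fewer had a median of 2027 TPM, with 53 over 1000 TPM. For 16 genes the listed transcript was over 2 times as long as the shortest principal transcript of GENCODE release 29, the most for RPS29 at 7062 against 296 bases. Whether the deposited TPM used the listed length was not tested, and levels are compared between ribosomal protein genes with that limit. GENCODE release 29 also names 1133 pseudogenes after 76 of the 82 genes. Reads shared with such near-identical copies could be split or lost, which makes the level of each such gene uncertain.

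Libraries stood apart within both groups, in a way the groups do not explain. Values were taken as log2(TPM + 1), and the deviation of each library from the mean over all 6 libraries was found for the 81 genes that reached 1 TPM in 3 or more libraries, which excludes RPL3L. The median deviation was 0.01, 0.06 and -0.09 in CES2 1 to 3, and 0.15, 0.08 and -0.20 in Vector 1 to 3. Vector 3 was the lowest of the 6 libraries for 46 of the 81 genes (56.8%), against 5.73% of all 12210 tested genes. Vector 1 was the highest for 35 of the 81 (43.2%), against 22.9% of all tested genes. CES2 3 and Vector 3 were together the lowest 2 libraries for 39 of the 81 genes (48.1%), against 6.91% of all tested genes. Among the 1903 tested genes outside the group with a mean of at least 100 TPM, these shares were 9.93, 13.5 and 11.3% in that order. The labels name no batch, and what sets these libraries apart was not tested.

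**Figure D2:**
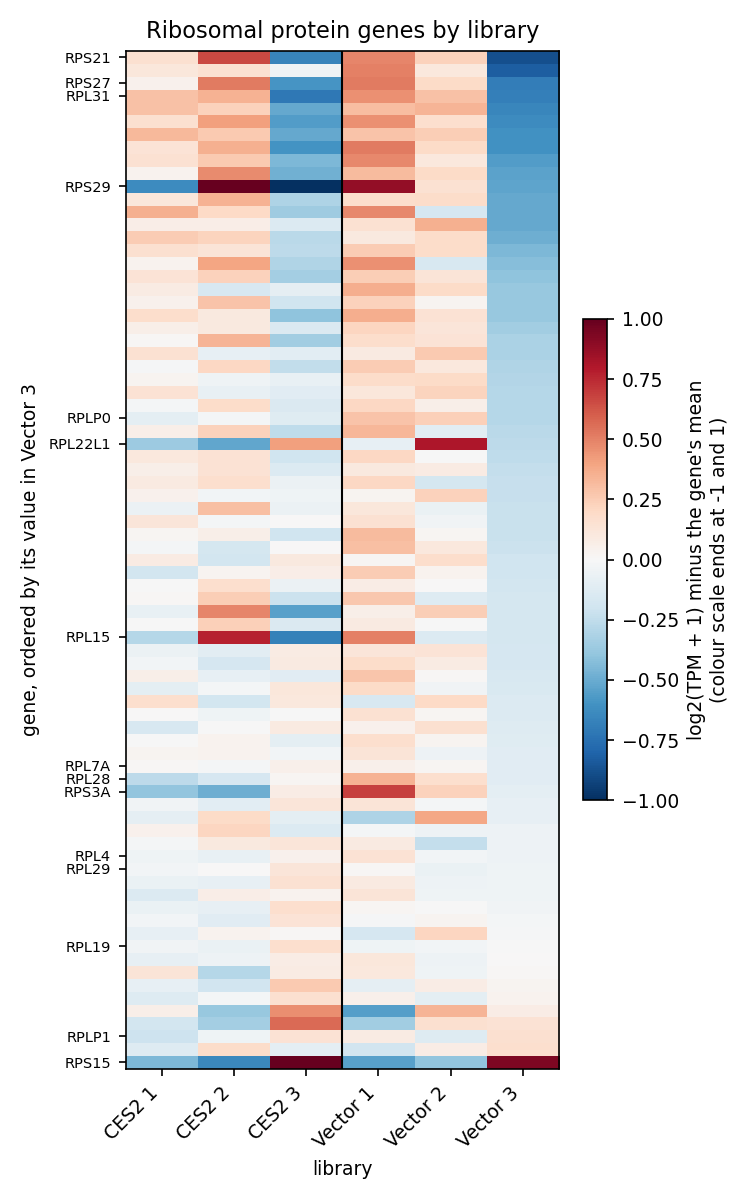
Deviation of log2(TPM + 1) from the gene's mean over the 6 libraries for 79 of the 81 tested ribosomal protein genes, 1 row a gene, with the names of 15 genes, with CES2 1 to 3 left and Vector 1 to 3 right. Rows are ordered by Vector 3, and the colour scale ends at -1 and 1. The column of Vector 3 is below the mean for most genes and that of Vector 1 above it, while RPS15 is above it in CES2 3 and Vector 3.

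No ribosomal protein gene passed the test between CES2 and Vector cells, and most had nearly the same mean in both. The comparison asks whether overexpression of CES2 was accompanied by another level of these transcripts. It was fitted on log2(TPM + 1) over all 12210 tested genes with limma, which moderates the variance of each gene by that of all genes, and fold changes are differences on that scale (CES2 minus Vector), which understates the change of low genes. At a Benjamini-Hochberg adjusted p of 0.05, 0 of the 81 genes were called by limma. Over all tested genes the only call was CES2 itself, 1 gene, which is 0.00819% of the tested genes (log2 fold change 5.66 with a standard error, SE, of 0.18, limma adjusted p = 7.38e-06). At an unadjusted p under 0.05, 0 of the 81 genes passed, against 1.09% of all tested genes (133). The groups did not overlap for 0 of the 81 genes, against 3.7% of all tested genes (452). In bulk RNA of this kind, fewer cells that make a transcript and less transcript per cell cannot be told apart.

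The fold changes lay close around 0. Their median was 0.00 with quartiles of -0.05 and 0.04, beside a median of -0.06 for all tested genes and of 0.00 for the 1980 tested genes with a mean of at least 100 TPM. Of the 81 genes, 42 (51.9%) had a fold change above 0, against 36.3% of all tested genes. Among the tested genes with at least 100 TPM it was 51.8%, so the share is that of genes at a high level. The share of the 81 genes was 81.5% after each library was rescaled to the same median (median log2 fold change 0.06). It was 32.1% after quantile normalization (median -0.04), so the balance of signs depends on the scaling. A fold change within 0.2 of 0 on the log2 scale was found for 76 of the 81 genes (93.8%), against 72.4% of all tested genes and 82.4% of those with at least 100 TPM. For 78 of the 81 genes the fold change was smaller than its standard error. The median standard error was 0.20, and differences of about that size could not be resolved with 3 libraries a group. Larger ones could be missed too, as RPS3A at -0.54 (SE 0.26) was not called.

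**Figure D3:**
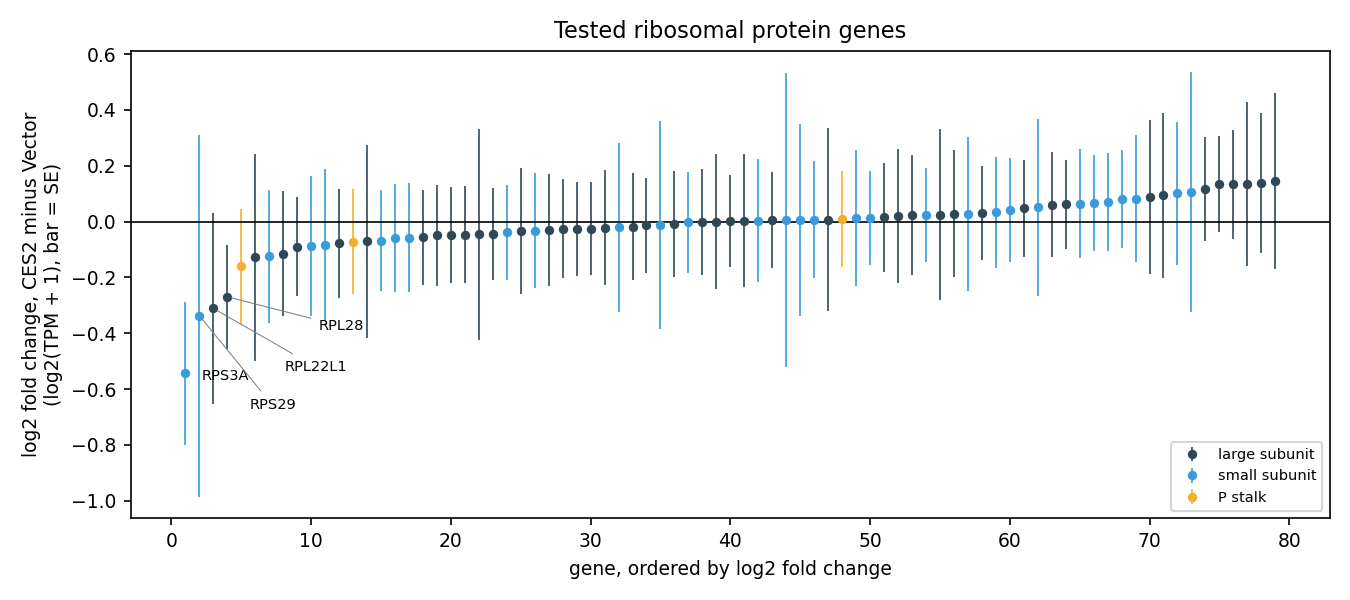
Log2 fold change on the log2(TPM + 1) scale (CES2 minus Vector) of 79 of the 81 tested ribosomal protein genes in order of size, coloured by subunit, with bars of 1 standard error. All but 4 of the genes drawn lie within 0.2 of 0, and these 4, RPS3A, RPS29, RPL22L1 and RPL28, are named.

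In the small subunit, 19 of 32 genes had a fold change above 0 and 0 were called, with a median of 0.01. RPS3A, which lies at the side of the small subunit where initiation factors bind, had the lowest fold change of all. It was at 1449.5, 1358 and 2010.5 TPM in CES2 and at 3076, 2239 and 1781 TPM in Vector (means 1606 ± 353 and 2365 ± 657 TPM, SD, n = 3 each). CES2 1 and 2 were below all Vector libraries, and the groups overlapped in CES2 3, which was above Vector 3. The log2 fold change was -0.54 (SE 0.26; limma, unadjusted p = 0.0646, adjusted p = 0.9998). The gene lies on chromosome 4 from 151099573 to 151104652 on the plus strand (GRCh38), and 38 pseudogenes are named after it. Without both libraries numbered 3, a choice made after they were seen to stand apart, its log2 fold change was -0.90, and it was again not called.

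RPSA, a small subunit protein also described as a laminin receptor, was at 2148, 2199.5 and 1737 TPM in CES2 and at 2299.9, 1993 and 1672 TPM in Vector, a log2 fold change of 0.03 ± 0.20 (SE).

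In the large subunit, 22 of 46 genes had a fold change above 0 and 0 were called, with a median of 0.00. RPL28, a large subunit protein with no named pseudogene, was at 394, 419.8 and 479 TPM in CES2 and at 601, 529.5 and 436 TPM in Vector. The highest CES2 library and the lowest Vector library, both numbered 3, overlapped. The log2 fold change was -0.27 (SE 0.19; limma, adjusted p = 0.9998). Those of RPL34, RPL13A and RPL37 were 0.13, 0.13 and 0.12, with standard errors of 0.17, 0.19 and 0.19.

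In the P stalk, RPLP0, the base on which the other stalk proteins assemble, was at 2307, 2432 and 2270.3 TPM in CES2 and at 3008, 2913 and 2028 TPM in Vector. Vector 3 lay below all CES2 libraries and the other Vector libraries above them. The log2 fold change was -0.16 ± 0.21 (SE). RPLP1 and RPLP2, the acidic proteins that form dimers on it, had log2 fold changes of -0.07 and 0.01 with standard errors of 0.19 and 0.17. All 3 values lay within their standard errors.

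Of the 6 ribosomal proteins listed for binding to MDM2, 2 had a fold change above 0 and 0 were called. Above 0 were 4 of 6 after median rescaling and 1 of 6 after quantile normalization. RPL11 was at 1301, 1229 and 1462 TPM in CES2 and at 1319, 1353 and 1308 TPM in Vector, a log2 fold change of 0.00, with an SE of 0.16. RPL5, its partner in the particle with the small ribosomal RNA of the large subunit, was at 1659.6, 1409 and 1381 TPM in CES2 and at 1584, 1788 and 1194 TPM in Vector, a log2 fold change of -0.02 (SE 0.21). RPL23 and RPS7 had log2 fold changes of -0.12 and 0.07 with standard errors of 0.22 and 0.18. Each of these values lay within its own standard error. Of the 17 listed genes whose variants cause Diamond-Blackfan anaemia, an inherited failure of red cell production, 9 had a fold change above 0 and 0 were called, with a median of 0.00 (15 of 17 above 0 after median rescaling and 5 after quantile normalization). The lowest of them was RPS29 at -0.34 and the highest RPS28 at 0.10.

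The median size of the fold change, 0.05 on the log2 scale, was smaller than the spread between libraries. The median within-group SD of log2(TPM + 1) was 0.213 over the 81 genes, 0.311 over all tested genes and 0.267 over those with at least 100 TPM. It was under 0.1 for 7 ribosomal protein genes and above the median of all tested genes for 27 of them. RPL29, a large subunit protein, had the lowest, 0.065, and was at 1078, 1102 and 1202 TPM in CES2 and at 1114, 1054 and 1068 TPM in Vector. RPL7A, also of the large subunit, had 0.067 and was at 3435, 3363 and 3538 TPM in CES2 and at 3529.5, 3450.3 and 3148 TPM in Vector. RPL4, whose loop lines the exit tunnel, had 0.085 and was at 1621, 1586 and 1721 TPM in CES2 and at 1838, 1637 and 1614 TPM in Vector. The 3 genes kept close values in the 6 libraries. RPL29 and RPL7A carry the tracts printed above, while RPL4 has no tract at its RefSeq start.

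RPS29, a small zinc-binding protein of the small subunit, had the widest spread, an SD of 1.11. It was at 478, 1966 and 302 TPM in CES2 and at 1361, 822 and 513 TPM in Vector. CES2 2 was the highest and CES2 3 the lowest of the 6 libraries, so the CES2 group spanned the Vector group. The log2 fold change was -0.34 ± 0.65 (SE), and it was 0.22 without CES2 3, 0.02 without Vector 1 and -1.13 without CES2 2. The gene is listed on chromosome 14 from 49570984 to 49586376 on the minus strand (GRCh38), so the RefSeq start printed above lies outside the listed transcript. The printed window of RPL22 also lies outside its listed transcript, on chromosome 1 from 6181269 to 6197757 on the minus strand. The RefSeq starts of RPS21 and RPL7L1 lie just before their listed transcripts, which begin at 62387116 on chromosome 20 and at 42879618 on chromosome 6.

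RPS15, a small subunit protein that reaches towards the decoding centre, was second, with an SD of 0.886. It was at 1082, 945 and 3158 TPM in CES2 and at 1011, 1123 and 2820.0 TPM in Vector. The libraries numbered 3 were the highest in both groups and the other 4 lay together, and the log2 fold change was 0.00 ± 0.53 (SE). RPL19 and RPLP1 were among the other genes with CES2 3 and Vector 3 as the highest 2 libraries, which held for 4 of the 81 (4.94%), against 18% of all tested genes.

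RPS21, RPL31 and RPS27 were instead low in the same libraries. RPS21 was at 4390.1, 6198 and 2480.4 TPM in CES2 and at 5515, 4602 and 2129.9 TPM in Vector. RPL31 was at 1113, 1158 and 554 TPM in CES2 and at 1244, 1115 and 567 TPM in Vector. RPS27, a zinc-binding protein of the small subunit, was at 3219.9, 4478 and 2076 TPM in CES2 and at 4471, 3561 and 1931 TPM in Vector. In each of these 3 genes the libraries numbered 3 were the lowest 2 of the 6. Their within-group SDs were 0.699, 0.606 and 0.592, and their log2 fold changes 0.11, -0.05 and -0.01. RPL15, a large subunit protein with an SD of 0.593, was at 716, 1488 and 548 TPM in CES2 and at 1242, 793 and 775 TPM in Vector. Its highest and its lowest library were both CES2 libraries.

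**Figure D4:**
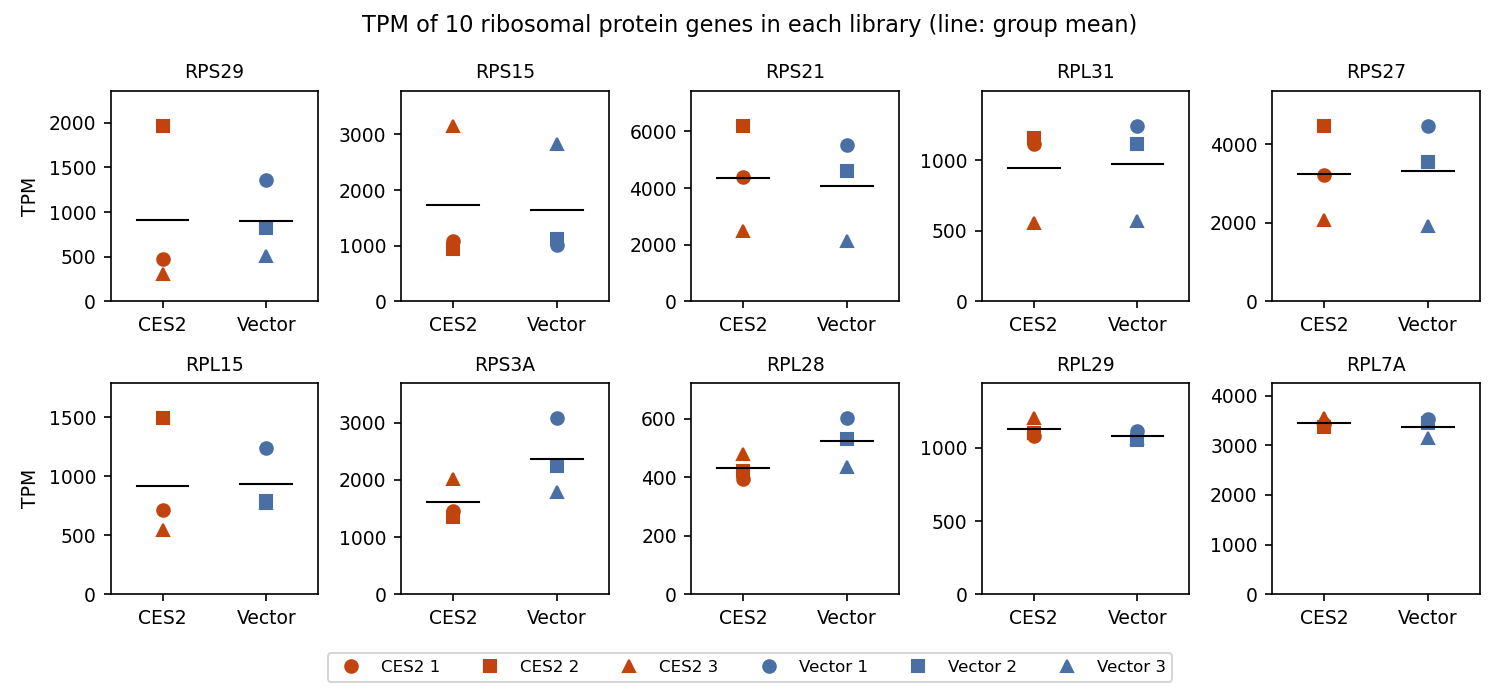
TPM in each library for 10 ribosomal protein genes, CES2 left and Vector right, with a symbol for each library and a line for the group mean. RPS15 is near 3000 TPM in CES2 3 and Vector 3 and near 1000 TPM in the other libraries, while RPL29 and RPL7A stay level.

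Without both libraries numbered 3, the median log2 fold change of the 81 genes was -0.07, with 26 of 81 above 0, and 0 were called. At an unadjusted p under 0.05 there were then 2 of the 81 genes (2.47%), against 1.7% of all tested genes (208), a share near that background. These 2 were RPS3A and RPL22L1, with log2 fold changes of -0.90 and -0.80. Without Vector 3 alone the median was -0.10, with 15 of 81 above 0, and without Vector 1 alone it was 0.06, with 60 of 81 above 0. With CES2 2 alone left out, 27 of 81 were above 0, and with CES2 3 alone left out, 47 of 81. The side of 0 on which most of the genes lie thus turns with which single library of either group is left out.

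Some paralogues whose names end in L or L1 give the ribosome alternative proteins. Each paralogue named in this way was set against its parent as the share of the pair's summed TPM. RPL22L1, an RNA-binding paralogue of RPL22 that is also known to regulate splicing, made up 11.7, 11.6 and 20.5% of the pair in CES2 and 12.2, 23.7 and 14.2% in Vector. The highest share was in Vector 2 and the next in CES2 3. RPL22L1 itself was at 69.8, 62.4 and 120.0 TPM in CES2 and at 84.8, 158 and 74.9 TPM in Vector, and RPL22 at 525, 476 and 466 TPM in CES2 and 611, 508 and 452 TPM in Vector. The log2 ratio of paralogue to parent, with 1 TPM added to each, differed by -0.22 (exact two-sided permutation test, p = 0.5). Its fold change, -0.31 with a standard error of 0.34, was 0.02 without Vector 2.

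RPL36AL, which lies outside the name rule but encodes a protein almost the same as RPL36A, was the most abundant paralogue, with 30.3, 23.8 and 33.8% of the pair in CES2 and 24.1, 34.2 and 35.7% in Vector. RPL7L1 took 3.69, 3.17 and 5.74% of its pair with RPL7 in CES2 and 2.48, 4.23 and 4.96% in Vector. RPL26L1 took 3.90, 4.25 and 3.57% of its pair with RPL26 in CES2 and 3.31, 4.71 and 4.03% in Vector. These shares overlapped between the groups in every pair. RPS27L, a paralogue of RPS27 known as a target of p53, was at 7.11, 6.26 and 7.22 TPM in CES2 and at 9.09, 7.81 and 6.05 TPM in Vector, which is 0.220, 0.140 and 0.346% of its pair in CES2 and 0.203, 0.219 and 0.313% in Vector. RPL3L, known from skeletal muscle and heart, was at 0.264, 0.651 and 0.625 TPM in CES2 and at 0.929, 0.173 and 0.864 TPM in Vector, too low to be tested for a fold change. Over the 6 pairs the log2 ratios differed by -0.22 to 0.12, and exact two-sided permutation tests gave p = 0.5 to 1, with an adjusted p of 1 for each, where 3 against 3 allows no p under 0.1. RPL10L and RPL39L have no row in the table and were not analysed here.

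**Figure D5:**
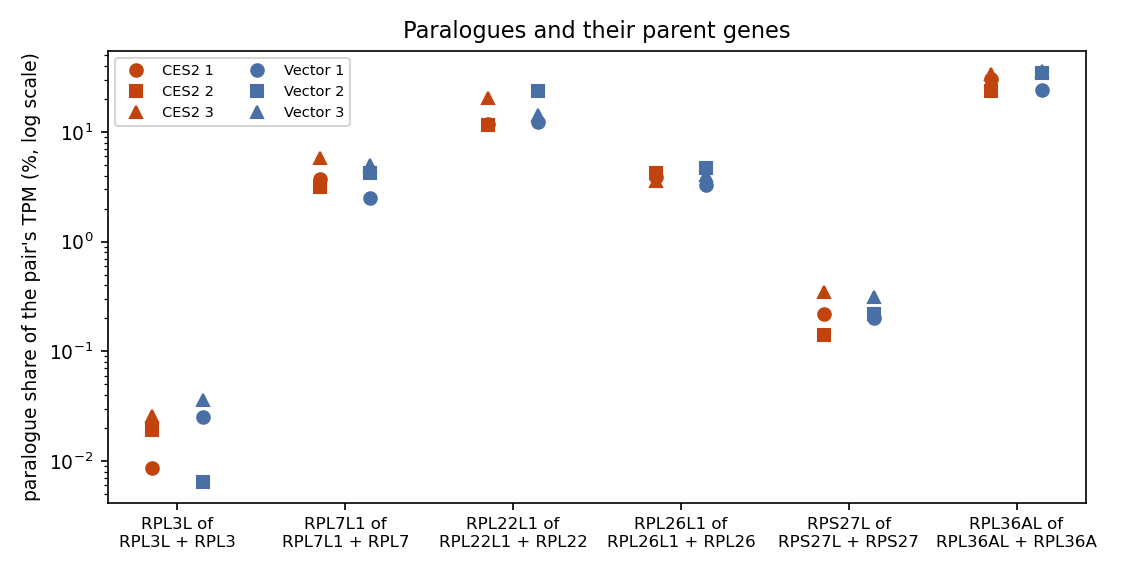
Share of each paralogue in the summed TPM of its pair, in percent on a log axis, with a point a library, CES2 left and Vector right in each pair. The points of the groups overlap in all 6 pairs, from RPL36AL at 23.8 to 35.7% down to RPL3L under 0.04%.

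The ribosomal proteins outside the name rule were not called either. RACK1, a scaffold on the small subunit, was at 1082, 1356 and 1367 TPM in CES2 and at 1104, 1116 and 1103 TPM in Vector, a log2 fold change of 0.19 ± 0.17 (SE). FAU, which encodes a ribosomal protein fused to a ubiquitin-like sequence, had a log2 fold change of 0.10 ± 0.18 (SE). A read-through entry that joins RPL36A to its neighbour HNRNPH2 was at 81, 2.95 and 64 TPM in CES2 and at 1.72, 74.1 and 87.5 TPM in Vector, high in 2 libraries of each group and under 3 TPM in the other. RPL36A was at 951, 1224 and 755 TPM in CES2 and at 1277, 829.7 and 690.2 TPM in Vector, the highest in the library of each group where that entry was under 3 TPM. The sum of both entries was 1032, 1226 and 819 TPM in CES2 and 1279, 904 and 778 TPM in Vector. How reads were divided between such overlapping entries was not tested.

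Other genes of the translation machinery, in lists fitted with all genes, gave 0 calls as well. Of 18 translation factors and related genes known to carry the TOP motif, 5 had a fold change above 0 and 0 were called. Their median was -0.06, and 10 of 18 were above 0 after median rescaling and 3 after quantile normalization. EEF1A1, the elongation factor that brings aminoacyl-tRNA to the ribosome, was at 7899, 7209 and 7608 TPM in CES2 and at 12004, 10341 and 5443 TPM in Vector. Vector 3 lay below all CES2 libraries and the other Vector libraries above them, as for RPLP0. The log2 fold change was -0.21 ± 0.30 (SE). EIF3L, a subunit of an initiation factor, and BTF3, which binds nascent chains, had log2 fold changes of -0.18 and -0.12 with standard errors of 0.17 and 0.18. Among the ribosomal protein genes, those with and without a tract both had a median fold change of 0.00 (47 and 19 genes).

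Of 53 ribosome biogenesis genes, which process ribosomal RNA and assemble the subunits in the nucleolus, 19 had a fold change above 0 and 0 were called, with a median of -0.04 (30 of 53 above 0 after median rescaling and 27 after quantile normalization). Their median deviation was 0.02, -0.56 and 0.45 in CES2 1 to 3 and -0.48, 0.43 and 0.09 in Vector 1 to 3. For all tested genes it was 0.00, -0.02 and -0.05 in CES2 and 0.04, -0.09 and 0.14 in Vector. The biogenesis genes were lowest in CES2 2 and Vector 1, which were the highest libraries of their groups for the median ribosomal protein gene. NCL, which encodes the nucleolar protein nucleolin and was chosen after its values were seen, was at 845, 488 and 1367 TPM in CES2 and at 410.5, 1220.1 and 1039.5 TPM in Vector. NMD3, the export adaptor of the large subunit, had the smallest p of the list, with means of 98.7 TPM in CES2 and 127 TPM in Vector and a log2 fold change of -0.40, with an SE of 0.24 (limma, adjusted p = 0.9998). RIOK2 and UTP15, which mature the small subunit, had log2 fold changes of -0.29 and -0.31 with standard errors of 0.29 and 0.35.

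Of 9 genes listed as chaperones of ribosomal proteins, which include the histone chaperone NAP1L4 and the spliceosome assembly factor AAR2, 8 had a fold change above 0 and 0 were called, with values of -0.05 to 0.09 (8 or 9 above 0 under the other scalings). Their median deviation was 0.02, -0.37 and 0.43 in CES2 1 to 3 and -0.36, 0.32 and 0.04 in Vector 1 to 3, so CES2 2 and Vector 1 were the lowest here too. NAP1L4 had the highest, 0.09 with a standard error of 0.16, and PDCD2, a chaperone of RPS2, was at -0.05 with a standard error of 0.23. Of 12 genes that rescue stalled ribosomes, 4 had a fold change above 0 and 0 were called. Above 0 were 8 of 12 after median rescaling and 4 of 12 after quantile normalization. LTN1, the ubiquitin ligase for nascent chains on stalled large subunits, had the smallest p, with means of 11.7 TPM in CES2 and 14.7 TPM in Vector and a log2 fold change of -0.32 (SE 0.23). MAP3K20, a kinase that senses stalled ribosomes, was at -0.23 with a standard error of 0.22.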

How the data were processed

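RNA was measured in 3 CES2 and 3 Vector libraries, grouped by the sample labels. The deposited table holds TPM for 14136 gene entries. No header states the unit, which was read from column sums of 999804 to 999893. Per the submitters' processing notes, the authors used edgeR 3.0.8, StringTie 1.3.3 and HISAT2 2.1.0 with the builds GRCh38 and hg38, and no role is stated for each. Their annotation is not given in the sources used here, nor is the use of strand. Blank entries (73 to 279 a library) were read as 0.

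The members and gene lists were chosen with earlier results of these data known. The 12210 genes that reached 1 TPM in 3 or more libraries were fitted as log2(TPM + 1) in R 4.3.3 with limma 3.58.1 (trended prior variance, group as the only term), and p-values were adjusted by Benjamini-Hochberg over all of them. Genes named in the text were CES2, the paralogues and their parents, the 8 highest and 6 lowest members by mean, the 8 with the smallest p, the 6 widest and 3 narrowest in spread, the P stalk and MDM2-binding lists, RPSA, and up to 4 genes of each other list. RPL36A, RPL39, RPS28, NCL and the read-through entry were added after their values were seen. Paralogue ratios were compared by exact permutation tests in scipy 1.17.1. The scripts were tested on simulated data. Alternatives were each library left out, quantile normalization, rescaling to the median or to non-members, a replicate block, other filters and pseudocounts, no trend, and library weights. Transcript starts are those of RefSeq. A few genes that these rules select are not reported here.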

Additional observations from a re-analysis of the deposited data

How the results depend on the processing

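The number of genes called over the whole table was 1 to 2 with a library left out (2 without CES2 3) and 4 under weighting of libraries, with a weight of 6.86 for CES2 1. The cause was not tested. It was 1 under the other alternatives, and 0 ribosomal protein genes were called under any of the alternatives run. The median log2 fold change of the tested ribosomal protein genes was -0.10 to 0.06 with a library left out, and its sign turned with the library. At an unadjusted p under 0.05, 1 ribosomal protein gene (1.23%) passed without CES2 2 (RPS29, against 1.06% of all tested genes), and 1, RPS3A, without CES2 3 (against 2.1%), without Vector 3 (0.999%) and with library weights (5.09%), shares near or below that of all genes. Of the 39 named genes, 35 had a fold change smaller than its standard error, and 107 of their 702 values under alternatives had another sign than the value in the report. Among the paralogue ratios, 14 values had another sign. With the replicate block, 1 gene and 0 ribosomal protein genes were called, and 134 genes had an unadjusted p under 0.05. Libraries with the same number had correlations of their deviations from the group means of 0.145, -0.524 and 0.375 over all tested genes. Over the 81 ribosomal protein genes these were 0.385, 0.039 and 0.782. The highest over all tested genes was 0.682, between CES2 2 and Vector 1. With 3 libraries a group, these values cannot decide whether the numbers pair the samples. Depth is unknown, so counting error could not be given.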
